A study of Mus musculus with 8 samples.

Results

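Cell junction genes were examined in IEC10 cells, an immortalized mouse line of gut epithelium whose donor animal bore an Mx2-driven luciferase reporter. The genes taken were all claudins, tight junction proteins, plakophilins, desmogleins, desmocollins and connexins by their names on the array, together with Ocln, Cgn, F11r, Jam2, Jam3, Cdh1, Dsp, Jup, Marveld2, Marveld3, Epcam and Pof1b. These rules gave 79 probes under 67 gene names, out of 39429 probes under 31791 names. All cells had grown for 21 days on transwell inserts, so that the untreated control was polarized as well. The control (2 arrays, numbered replicates 2 and 3) was compared with IFN-λ2 at 20 ng/mL (3 arrays) and with IFN-β at 500 U/mL (3 arrays), both for 9 h, and no other genotype or agent was involved. All arrays come from a single cell line, and nothing in the labels says whether the replicates were separate cultures, so that p-values measure only the spread between these arrays.

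Tight junctions seal the space between neighboring epithelial cells. Claudins form their strands and decide which ions pass, occludin and its MARVEL domain relatives sit in the same strands, and scaffold proteins such as Tjp1 tie the strands to actin. Desmosomes hold cells together through desmogleins and desmocollins, which desmosomal plaque proteins link to keratin filaments. Gap junctions are channels built from connexins that let ions and small molecules pass between adjacent cells.

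Values are normalized units, that is the processed signal of the green channel after each array was scaled to a 75th percentile of 1500 units, with 15 units as the lower threshold. The scaling factors lay between 0.691 and 0.775, and 20992 to 24252 probes per array were well above background. IFN-λ2 replicate 2 had the fewest such probes and the highest median of the negative controls, 8.13 units. The interferon response genes Isg15, Usp18, Ifit1, Ifi44 and Mx2 were all higher with both cytokines, 5 of 5 each, with median log2 changes of 4.03 for IFN-λ2 and 3.68 for IFN-β. The epithelial label was checked with 12 intestinal epithelial markers. Of these, 8 were well above background on all 8 arrays, Cdx1 on 4, Cdh17 on 2 and Cdx2 on none. Krt5, Krt14, Trp63 and Krt10, markers of stratified epithelium, were well above background on all 8 arrays as well, and Krt1, the remaining marker of that list, was at 15 units throughout.

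Of the 67 junction genes, 34 were well above background on all 8 arrays with their leading probe, the tested probe with the highest mean signal. For 20 genes no array was well above background, among them Cldn10a, Cldn11, Cldn13, Cldn16, Cldn17, Cldn18, Cldn19, Cldn20, Cldn22, Gja6, Gja10, Gjb5, Gjc3, Dsc1, Dsc3, Dsg1a, Dsg1b, Dsg3 and Dsg4. Testing was limited to the 26009 probes that exceeded 15 units on 2 or more arrays, which included 53 junction probes of 47 genes. A dim probe can pass that filter through 1 bright group alone. For Cldn8 and Pof1b the IFN-λ2 arrays would suffice, although each also exceeded 15 units on a control and an IFN-β array.

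With IFN-λ2, 9 junction genes rose against control and 9 fell. Cldn8, Pof1b, Dsp, Gjb1, Ocln, Cldn1, F11r, Cdh1 and Cldn12 rose. Among those that fell were Cldn6, Jam3, Cldn9, Cldn3, Pkp1, Cldn4, Marveld3 and Tjp3. In probes, 9 of 53 were higher (17.0%, against 10.1% of all tested probes) and 11 of 53 were lower (20.8%, against 8.39%) at an adjusted p below 0.05 in limma. The median log2 change of the 47 genes was -0.06, and that of all tested probes was 0.00. The counts fell without single arrays: to 3 higher probes without control replicate 3 and 4 without IFN-λ2 replicate 1 or 3, and to between 4 and 7 lower probes without either control array, any IFN-λ2 array or IFN-β replicate 3. With the replicate number as a block, 12 of the 18 genes were still called, in 5 higher and 7 lower probes. Normexp background correction on the same tested probes left 12 of the 18, and dropping the filter on dim probes alone left 12 as well. With normexp correction and all 79 junction probes let past the filter, which are 2 changes at once, 5 were still called, namely Pof1b, Cldn3, Cldn6, Cldn8 and Gjb1.

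With IFN-β, none of the 53 junction probes was called against control, whereas 1.42% of all tested probes were higher and 0.211% were lower. At an unadjusted p below 0.05, limma gave 7 junction probes (13.2%, against 12.0% of all tested probes), and the methods' t-test called 0. The lowest adjusted p was 0.113, for Cldn9. Among the 34 genes measured on all arrays the log2 changes ran from -0.51 to 0.30, against -1.45 to 0.64 with IFN-λ2. Without IFN-β replicate 3, 1 probe was called higher, that of Dsg1b, which was well above background on no array.

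The cytokines were also compared directly. Here 4 junction probes were higher with IFN-λ2 (7.55%, against 5.64% of all tested probes), those of Cldn8, Pof1b, Ocln and Gjb1. Another 9 were lower (17.0%, against 5.56%). Probes of Cldn4, Cldn6, Cldn9, Pkp1, Jam3, Marveld3 and Tjp3 were among them. Without IFN-λ2 replicate 1 the counts were 2 and 3, and without IFN-λ2 replicates 2 or 3 or IFN-β replicate 3, between 4 and 5 were lower. The replicate block left 3 higher and 5 lower probes. Of the 12 genes called by their leading probe, normexp correction on the same probes left Pof1b, Cldn6, Cldn8, Gjb1, Ocln and Marveld3, and without the filter as well it left the former 4. The 3 comparisons share arrays and are not independent of each other.

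**Figure D1:**
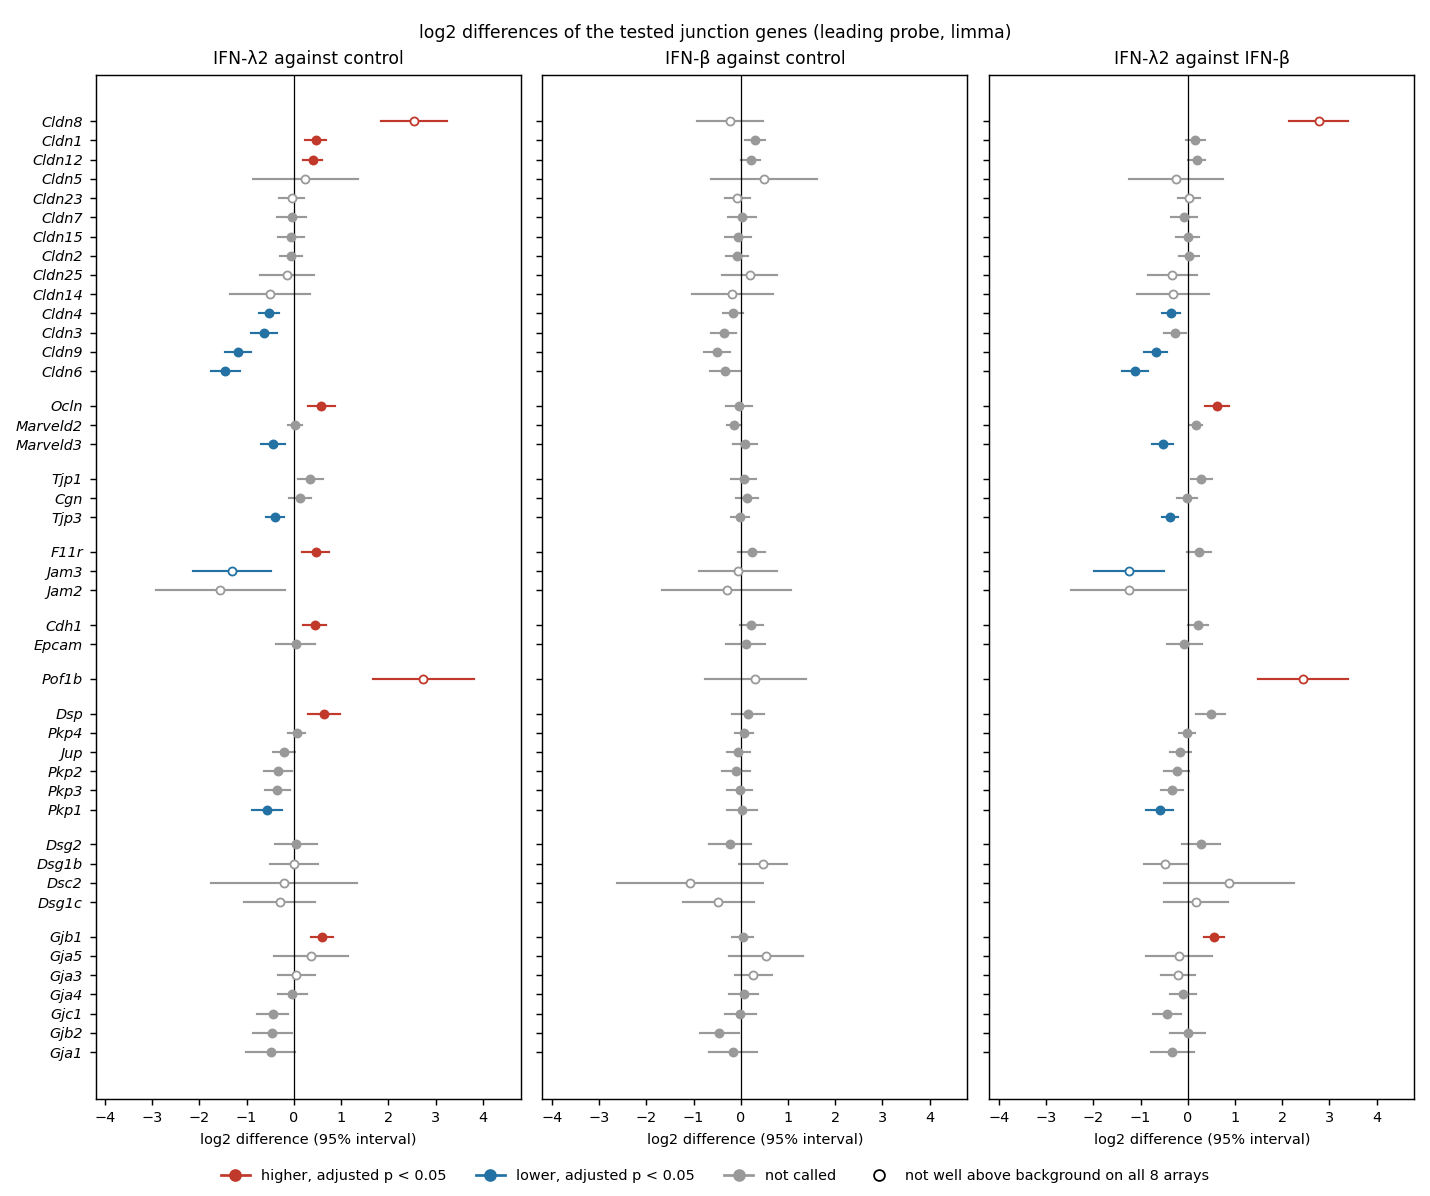
log2 differences of 43 of the 47 tested junction genes (leading probe, limma) for the 3 comparisons, with 95% intervals and genes ordered by class; red marks a call as higher, blue a call as lower, gray no call, and open circles mark genes not well above background on all 8 arrays. Cldn8 and Pof1b lie far to the right with IFN-λ2, Cldn6 and Cldn9 lie to the left, and the middle panel holds no call.

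Among the claudins, 14 of 23 were tested. Of these, 3 rose with IFN-λ2 and 4 fell, against 10.1% and 8.39% of all tested probes. Cldn8, a barrier-forming claudin of colon and distal nephron, was at 15 and 25.4 units in the control and at 15, 15 and 20.5 units with IFN-β. With IFN-λ2 it was at 152, 105 and 92.4 units. All 3 IFN-λ2 arrays lay above the other 5. The log2 change was 2.54 ± 0.30 (SE) against control (adjusted p = 0.00195, limma) and 2.77 ± 0.27 against IFN-β (adjusted p = 0.00159). Since 1 control array and 1 IFN-β array were well above background, these values lean on signals at the threshold. Where a group is taken at the lowest signal well above background on its arrays, or at the probe's own signal if higher, IFN-λ2 stood at least 5.05-fold higher against control and at least 4.91-fold higher against IFN-β. These bounds, like those given below for other genes, hold for the scaling and threshold used here and leave out the spread between arrays. The 95% intervals of the log2 changes were 1.84 to 3.25 against control and 2.14 to 3.40 against IFN-β. With normexp correction on the same probes the log2 changes were 1.23 and 1.45 (adjusted p = 0.00426 and 0.00184), and with a lower threshold of 50 units both were 1.19, still called. The IFN-β change was -0.23 with a 95% interval from -0.93 to 0.47. Within slides 2 and 3, which each held 1 control and 1 IFN-λ2 array, the difference from control was 2.81 and 1.86, and the replicate block gave 2.48 (adjusted p = 0.0141). Its neighbor in the RefSeq gene table, Cldn17, was at 15 units on all arrays.

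Cldn6 and Cldn9 fell together with IFN-λ2. Both are claudins known mostly from embryonic and newborn epithelia, and RefSeq places them side by side on chromosome 17 with no protein-coding gene between them. Cldn6 was at 1688 and 2070 units in the control, 597, 731 and 736 with IFN-λ2 and 1390, 1536 and 1529 with IFN-β. The IFN-λ2 arrays lay below all others. The change was -1.45 ± 0.13 against control (2.73-fold lower, adjusted p = 0.000681, limma) and -1.12 ± 0.12 against IFN-β (adjusted p = 0.00225). Cldn9 was at 197 and 241 units in the control, 88.0, 98.2 and 102 with IFN-λ2 and 149, 150 and 163 with IFN-β, so that the 3 groups did not overlap. It changed by -1.19 ± 0.11 against control (2.27-fold lower, adjusted p = 0.000843) and by -0.68 ± 0.10 against IFN-β (adjusted p = 0.00797). The IFN-β values of Cldn9 lay below the control (-0.51 ± 0.11, 95% interval -0.77 to -0.24) but missed the threshold with an adjusted p of 0.113. For Cldn6 the IFN-β change was -0.33 (adjusted p = 0.385). With normexp background correction the Cldn9 changes shrank to -0.65 and -0.28 (adjusted p = 0.0130 and 0.175 on the same probes, 0.0511 and 0.180 without the filter), whereas the Cldn6 changes were -1.22 and -0.98.

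The probes below are what these signals rest on. They are shown because Cldn6 and Cldn9 are neighbors that fell together, while Cldn8 rose from the threshold. Each is the 60-base oligonucleotide of the array, 5′ to 3′, with its mm9 position as the array files give it.
Cldn6 (chr17:23819027-23819086, plus strand): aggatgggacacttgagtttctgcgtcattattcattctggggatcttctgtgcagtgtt
Cldn9 (chr17:23820168-23820227, minus strand): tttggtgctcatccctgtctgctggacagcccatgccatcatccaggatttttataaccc
Cldn8 (chr16:88561135-88561194, minus strand): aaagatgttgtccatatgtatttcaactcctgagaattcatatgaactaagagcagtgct
The Cldn6 and Cldn9 probes lie on opposite strands and share no run longer than 5 bases. Among tested probes of different junction genes the longest shared run was 13 bases.

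Cldn3 and Cldn4, sealing claudins that bind Clostridium perfringens enterotoxin and lie next to each other on chromosome 5, were lower with IFN-λ2. Cldn3 was at 51341 and 41656 units in the control, 29338, 30533 and 29881 with IFN-λ2 and 33042, 36031 and 39282 with IFN-β. The 3 groups did not overlap for this gene. Its change was -0.63 ± 0.11 with IFN-λ2 (1.55-fold lower, adjusted p = 0.0110, limma), -0.36 ± 0.11 with IFN-β (adjusted p = 0.265) and -0.27 ± 0.10 between the cytokines (adjusted p = 0.155). Both probes of Cldn4 were lower with IFN-λ2, by -0.54 (adjusted p = 0.00831) and -0.43 (adjusted p = 0.0369). Against IFN-β, only the brighter of these probes was called (-0.36, adjusted p = 0.0319, and 0.0538 with the replicate block).

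Cldn1, a sealing claudin of skin and gut, and Cldn12, a claudin linked to calcium transport, were higher with IFN-λ2 by 0.47 (adjusted p = 0.0159) and 0.40 (adjusted p = 0.0216). With normexp correction the changes were 0.57 and 0.47, called on the same probes (adjusted p = 0.0219 and 0.0423) and not called without the filter as well (adjusted p = 0.0799 and 0.141). Between the cytokines they differed by 0.16 and 0.19 (adjusted p = 0.271 and 0.184, limma), so that no difference between IFN-λ2 and IFN-β was called for either. Cldn2, which forms cation and water pores in leaky epithelia, was at 115 and 121 units in the control, 115, 122 and 103 with IFN-λ2 and 118, 113 and 103 with IFN-β. Its change with IFN-λ2 was -0.06 ± 0.10 (95% interval -0.30 to 0.17, adjusted p = 0.691). The second Cldn2 probe was at 15 units on all arrays.

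Cldn7, a basolateral claudin that binds Epcam, was at 51690 and 40504 units in the control, 43755, 44972 and 43946 with IFN-λ2 and 41236, 49684 and 49109 with IFN-β. The groups overlapped, and the change was -0.05 ± 0.13 with IFN-λ2 (95% interval -0.35 to 0.25, adjusted p = 0.823, limma) and 0.02 ± 0.13 with IFN-β (adjusted p = 0.971). Cldn15, the sodium pore of small intestine, changed by -0.06 with either cytokine. The dim claudins Cldn5, Cldn14, Cldn23 and Cldn25 were tested without a call. Cldn25 is named as on the array, since its accession did not match the RefSeq table.

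Promoters were looked at because interferon signaling ends at short DNA elements. RefSeq promoter windows of GRCm38.p6, 250 bases before to 50 bases after a start, were at hand for 40 junction genes in 56 windows. The core of an interferon-stimulated response element, GAAA followed by any 2 bases and a second GAAA, was searched on both strands, as was the gamma-activated site TTCNNNGAA, where N stands for any base. The first was present in 3.57% of the junction windows and 3.44% of all 32851 windows, the second in 7.14% and 8.30%. Among junction genes the first was found in Cldn7 and Gjc3, and the second in Cldn7, Cldn12 and Cldn14. The Cldn7 window with the first motif in capitals is printed because this gene was called in no comparison. The windows of Cldn6 and Pof1b, which were among the largest changes with IFN-λ2, hold neither. Cldn8, Cldn9, Jam3, Cdh1, Pkp1 and Marveld3 were also called with IFN-λ2, but no window was at hand for them, so they were not searched.
Cldn7 (chr11:69964529-69964828, plus strand): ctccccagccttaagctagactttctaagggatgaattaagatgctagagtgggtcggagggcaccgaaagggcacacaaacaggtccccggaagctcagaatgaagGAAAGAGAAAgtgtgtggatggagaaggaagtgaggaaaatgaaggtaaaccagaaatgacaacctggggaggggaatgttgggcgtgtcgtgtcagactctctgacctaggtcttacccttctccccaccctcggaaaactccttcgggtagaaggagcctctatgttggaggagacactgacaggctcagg
Cldn6 (chr17:23679115-23679414, plus strand): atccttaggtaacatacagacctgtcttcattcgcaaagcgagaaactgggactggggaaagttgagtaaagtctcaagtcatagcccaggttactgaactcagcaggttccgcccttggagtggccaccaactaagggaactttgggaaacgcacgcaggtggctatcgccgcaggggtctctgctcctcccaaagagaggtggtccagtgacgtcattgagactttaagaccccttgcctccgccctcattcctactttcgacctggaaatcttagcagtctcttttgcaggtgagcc
Pof1b (chrX:112698602-112698901, minus strand): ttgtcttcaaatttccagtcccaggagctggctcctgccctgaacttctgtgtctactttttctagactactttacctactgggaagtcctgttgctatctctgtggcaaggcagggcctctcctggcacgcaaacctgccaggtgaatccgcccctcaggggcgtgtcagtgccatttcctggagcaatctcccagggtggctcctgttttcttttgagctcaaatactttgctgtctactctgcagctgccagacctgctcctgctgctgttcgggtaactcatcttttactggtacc
The capitals begin at position 108 of the 300-base Cldn7 window. A second Cldn7 window held the gamma-activated letters from position 66. None of the windows of Cldn1, Cldn3, Cldn4, Dsp, F11r, Gjb1, Ocln or Tjp3 held either motif, whereas Cldn12, also called with IFN-λ2, held the gamma-activated letters. A match of letters is a description of these windows and not a binding site.

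Pof1b encodes an actin-binding protein of epithelial junctions. Its leading probe was at 19.3 and 15 units in the control, 136, 92.5 and 118 with IFN-λ2 and 15, 41.6 and 15 with IFN-β. The IFN-λ2 arrays lay above all others. The log2 change was 2.75 ± 0.45 against control (adjusted p = 0.00782, limma) and 2.44 ± 0.40 against IFN-β (adjusted p = 0.0116). No control array and 1 IFN-β array were well above background, and with the same bound as for Cldn8, IFN-λ2 stood at least 6.46-fold higher against control and at least 4.69-fold higher against IFN-β. As for Cldn8, the size depends on the processing, with log2 changes of 1.38 and 1.35 with normexp correction on the same probes (adjusted p = 0.0122 and 0.0115) and 1.19 in both comparisons with a threshold of 50 units. Within slides the difference from IFN-β was 3.18, 1.15 and 2.98. Without control replicate 3, the adjusted p against control was 0.0564, and without IFN-λ2 replicate 1 that against IFN-β was 0.0509. The other probe of Pof1b gave no signal above 16.3 units on any array, and its call therefore rests on 1 probe. Both are printed, since they disagree.
Pof1b leading probe (chrX:109756588-109756647, minus strand): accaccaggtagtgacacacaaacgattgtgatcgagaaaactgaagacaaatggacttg
Pof1b second probe (chrX:109752017-109752038, minus strand): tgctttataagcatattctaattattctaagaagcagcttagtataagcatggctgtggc
The interval that the array files give for the second probe is shorter than its 60 bases.

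**Figure D2:**
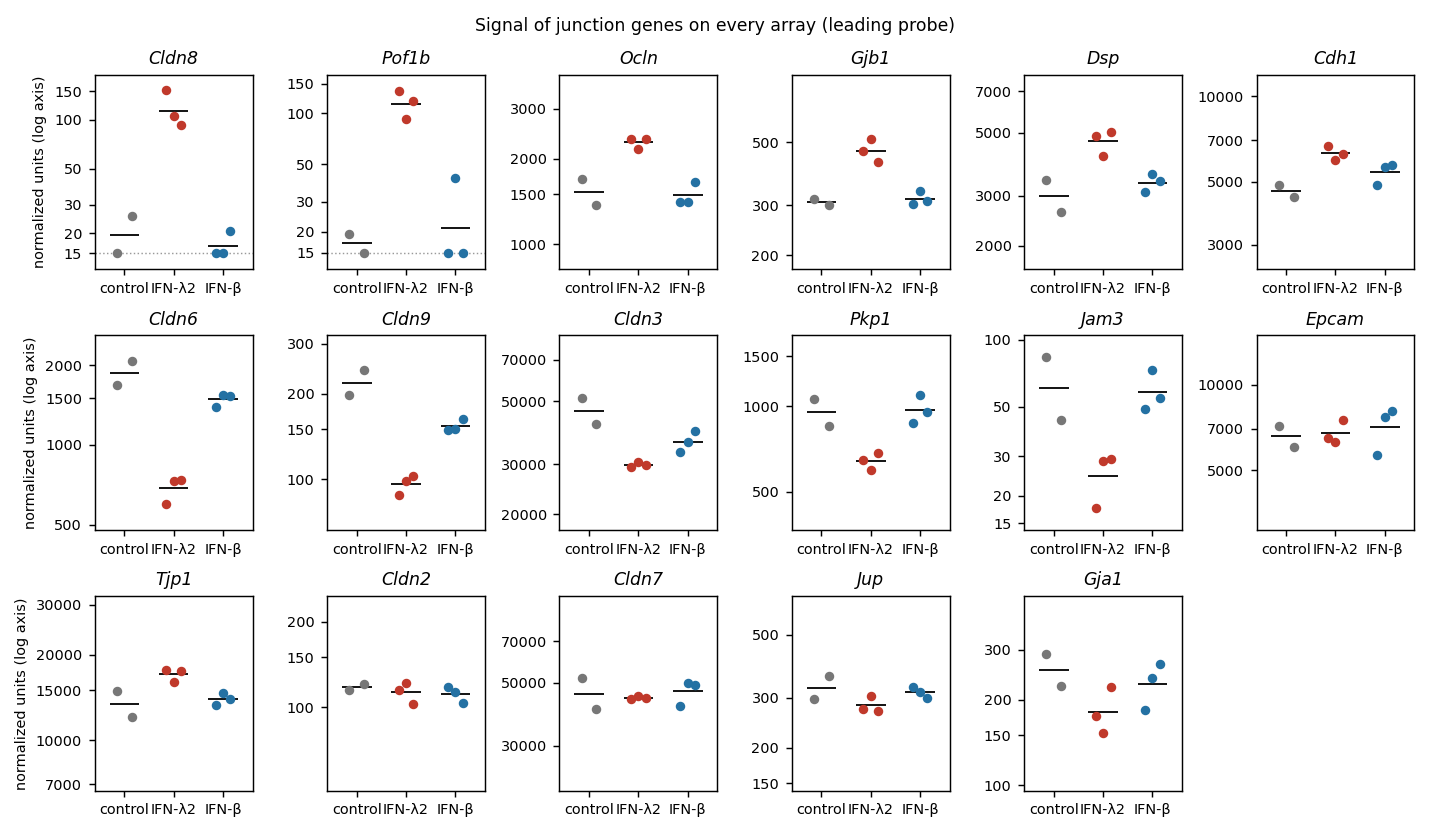
Normalized units (log axis) on every array for 17 junction genes, with control arrays in gray, IFN-λ2 in red and IFN-β in blue, horizontal bars at the geometric mean of each group and a dotted line at the lower threshold of 15 units where an array reaches it. The IFN-λ2 arrays lie above the others for Cldn8, Pof1b, Ocln, Gjb1, Dsp and Cdh1 and below them for Cldn6, Cldn9, Cldn3, Pkp1 and Jam3.

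Of the 3 occludin family genes, 1 was higher, 1 lower and 1 uncalled with IFN-λ2, where 10.1% of all tested probes were higher and 8.39% lower. Occludin (Ocln), which supports the branching of tight junction strands, was at 1693 and 1379 units in the control, 2344, 2162 and 2347 with IFN-λ2 and 1412, 1404 and 1659 with IFN-β. The control and IFN-β values overlapped and lay below IFN-λ2. The change was 0.58 ± 0.12 against control (1.49-fold, adjusted p = 0.0180, limma), -0.04 ± 0.12 for IFN-β against control (95% interval -0.32 to 0.24) and 0.62 ± 0.11 between the cytokines (adjusted p = 0.0133). The replicate block left the direction and lost both calls (adjusted p = 0.0647 and 0.0533). The dimmer Ocln probe moved by 0.43 against control and 0.47 against IFN-β and was called in neither comparison (adjusted p = 0.117 and 0.0944).

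Marveld2 (tricellulin), which closes the points where 3 cells meet and neighbors Ocln on chromosome 13, changed by 0.03 with IFN-λ2 (95% interval -0.12 to 0.17). Marveld3, the remaining family member, was at 2897 and 2942 units in the control, 2217, 1956 and 2246 with IFN-λ2 and 3156, 2761 and 3373 with IFN-β. It changed by -0.45 against control (adjusted p = 0.0295, limma) and -0.53 against IFN-β (adjusted p = 0.0156). Its second probe was lower against control too (-0.63, adjusted p = 0.0465), but was not called against IFN-β (-0.53, adjusted p = 0.0752). With normexp correction on the same probes the changes of the leading probe were -0.46 and -0.54 (adjusted p = 0.0682 and 0.0331), and without the filter as well neither was called (adjusted p = 0.191 and 0.103). Dropping the filter alone gave an adjusted p of 0.0552 against control.

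Of the scaffold proteins, Tjp3 was called. It was at 3782 and 4097 units in the control, 2838, 3144 and 2952 with IFN-λ2 and 3996, 3937 and 3702 with IFN-β, a change of -0.40 against control (adjusted p = 0.0156, limma) and -0.38 against IFN-β (adjusted p = 0.0175). With the replicate block both adjusted p were 0.058. Tjp1, the founding member of this family, was at 14885 and 12022 units in the control, 17703, 15960 and 17563 with IFN-λ2 and 13334, 14611 and 13936 with IFN-β. Although the IFN-λ2 arrays did not overlap the others, the change of 0.35 ± 0.11 missed the threshold (adjusted p = 0.0683). Cingulin (Cgn), which binds the scaffold to actomyosin, changed by 0.13 with IFN-λ2 without a call.

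The junctional adhesion molecules are immunoglobulin-like receptors beside the strands. F11r, the member of polarized epithelia, rose by 0.46 with IFN-λ2 (adjusted p = 0.0417, limma, and 0.0877 with the replicate block) and differed by 0.23 between the cytokines (adjusted p = 0.239). Its call was also lost with normexp correction on the same probes (adjusted p = 0.0699) and without the filter on dim probes (adjusted p = 0.0839). Jam3, known from endothelium, leukocyte adhesion and germ cells, was at 83.6 and 43.7 units in the control, 17.5, 28.6 and 29.3 with IFN-λ2 and 48.7, 73.4 and 54.9 with IFN-β. The IFN-λ2 arrays lay below the others, at -1.30 ± 0.35 against control (adjusted p = 0.0423) and -1.25 ± 0.31 against IFN-β (adjusted p = 0.0475), or at least 2.31-fold and 2.22-fold lower with the bound, since 1 IFN-λ2 array was well above background. These calls did not hold with normexp correction on either set of probes, where the changes were -0.16 and -0.08. Jam2 was at 46.1 and 46.1 units in the control, 17.2, 15 and 15 with IFN-λ2 and 75.6, 15.4 and 44.8 with IFN-β, and it was not called (-1.55, adjusted p = 0.113).

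E-cadherin (Cdh1), the calcium-dependent adhesion receptor of epithelia, was at 4876 and 4408 units in the control, 6684, 5955 and 6275 with IFN-λ2 and 4869, 5649 and 5748 with IFN-β. IFN-λ2 stood 0.44 ± 0.10 above control (1.36-fold, adjusted p = 0.0271, limma), a call that the replicate block did not keep (adjusted p = 0.0748). IFN-β lay between, and the cytokines differed by 0.22 (adjusted p = 0.193). Epcam, an epithelial adhesion protein that stabilizes claudins, was at 7179 and 6013 units in the control, 6508, 6262 and 7505 with IFN-λ2 and 5673, 7694 and 8097 with IFN-β. All groups overlapped, with a change of 0.04 ± 0.17 for IFN-λ2 (95% interval -0.38 to 0.45, adjusted p = 0.909).

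In the desmosome, 1 of 6 tested plaque proteins rose and another fell with IFN-λ2, against 10.1% and 8.39% of all tested probes. Desmoplakin (Dsp), which anchors keratin filaments, was at 3416 and 2640 units in the control, 4860, 4160 and 5041 with IFN-λ2 and 3084, 3584 and 3381 with IFN-β. The IFN-λ2 arrays lay above the rest, by 0.64 ± 0.14 against control (1.56-fold, adjusted p = 0.0230, limma) and 0.48 ± 0.13 against IFN-β (adjusted p = 0.0551). The block gave an adjusted p of 0.0715 against control. A dim second Dsp probe, at 25.5 to 81.7 units, changed by -0.06 (adjusted p = 0.949).

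Plakophilin Pkp1, a plaque protein prominent in stratified epithelia, was at 1062 and 854 units in the control, 646, 594 and 684 with IFN-λ2 and 869, 1095 and 955 with IFN-β. It changed by -0.57 ± 0.14 against control (adjusted p = 0.0295, limma) and by -0.60 ± 0.12 against IFN-β (adjusted p = 0.0242). With the replicate block these were 0.0814 and 0.0610. Pkp2 and Pkp3 were at -0.34 and -0.35 with IFN-λ2 without a call (adjusted p = 0.109 and 0.0730), and Pkp4 was at 0.06. Plakoglobin (Jup), shared by desmosomes and adherens junctions, was at 297 and 356 units in the control, 273, 303 and 270 with IFN-λ2 and 327, 314 and 299 with IFN-β, a change of -0.21 ± 0.10 with IFN-λ2 (adjusted p = 0.207).

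Of the 9 desmosomal cadherins, Dsg2, the desmoglein of simple epithelia, was measured on all arrays. It ranged from 206 to 338 units and changed by 0.05 ± 0.19 with IFN-λ2 and -0.23 ± 0.19 with IFN-β, with adjusted p of 0.883 and 0.695 in limma. Its second probe changed by -0.04 and -0.20. Dsc2, its usual partner, was well above background on 3 arrays and scattered from 15 to 67.3 units within and across groups. Dsg1c was well above background on 6 arrays and was not called.

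Of the 16 connexins, 8 were measured on all arrays. Gjb1, a connexin abundant in liver and exocrine glands, was at 316 and 300 units in the control, 464, 514 and 425 with IFN-λ2 and 303, 335 and 311 with IFN-β. The IFN-λ2 arrays lay above the others, whose values overlapped. The change was 0.60 ± 0.10 against control (1.51-fold, adjusted p = 0.00778, limma), 0.04 ± 0.10 with IFN-β (95% interval -0.20 to 0.27) and 0.56 ± 0.09 between the cytokines (adjusted p = 0.00950). The block kept both calls (adjusted p = 0.0171 and 0.0181).

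Gja1, the most widespread connexin of the body, was at 289 and 223 units in the control, 175, 153 and 222 with IFN-λ2 and 184, 238 and 266 with IFN-β. The change of -0.49 ± 0.22 with IFN-λ2 was not called (adjusted p = 0.170, limma), although IFN-λ2 lay below both control arrays. Gjb2, a connexin of cochlea, skin and gut, was at -0.45 with IFN-λ2 and -0.46 with IFN-β (adjusted p = 0.124 and 0.372). Gjc1 was at -0.44 with IFN-λ2 (adjusted p = 0.0702). Gja4 changed by -0.03 and 0.06. Gja3 and Gja5 were tested near the threshold without a call, and Gjb6 was above 15 units on 1 array, at 31.7 units.

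**Figure D3:**
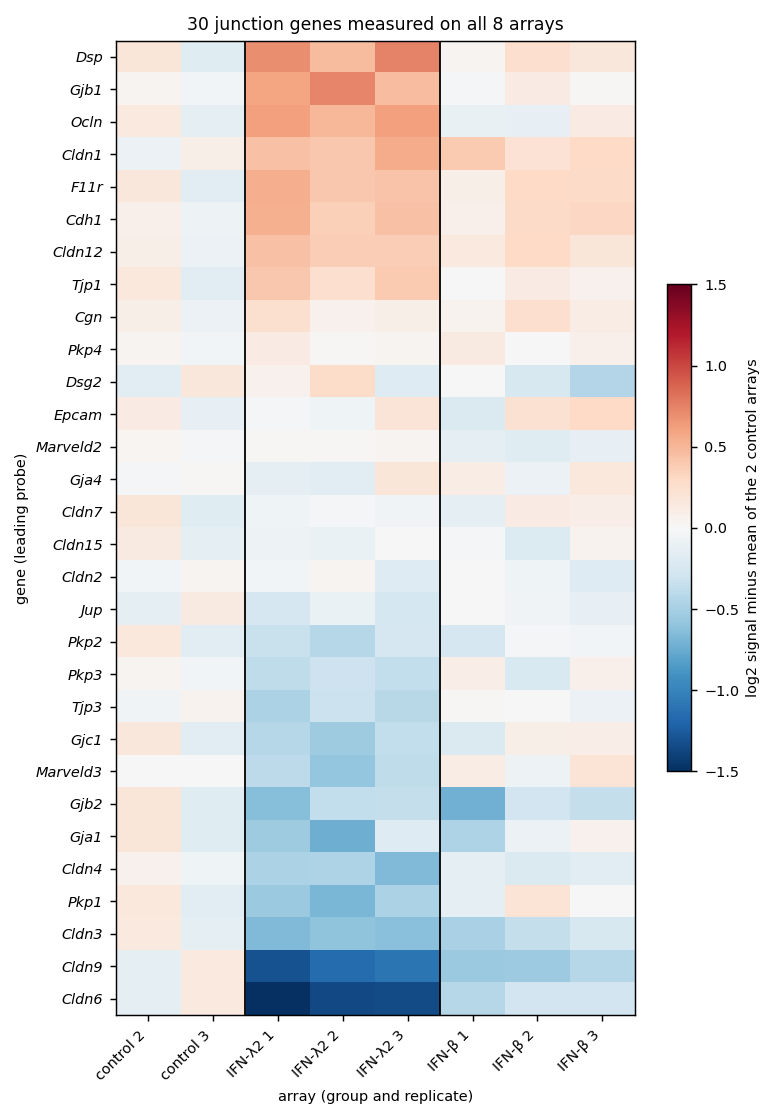
log2 signal of 30 of the 34 junction genes measured on all 8 arrays, relative to the mean of the 2 control arrays, with 1 column per array and genes ordered by their change with IFN-λ2. The IFN-λ2 columns run from red for Dsp and Gjb1 to blue for Cldn9 and Cldn6, and the IFN-β columns are paler, with Cldn9 and Gjb2 among their bluest cells.

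Other genes of the same structures were read from lists, whose counts stand beside the shares of all tested probes called, 10.1% higher and 8.39% lower with IFN-λ2, 5.64% and 5.56% between the cytokines, and for IFN-β 1.42% and 0.211%. Of 12 adherens junction genes, 2 were higher and 2 lower with IFN-λ2, and none was called with IFN-β (limma, with 1 at an unadjusted p below 0.05 and 0 by the methods' t-test). Between the cytokines 1 was higher and 5 were lower. Nectin1 and Nectin3, immunoglobulin-like adhesion receptors, changed by -1.37 and -0.89 with IFN-λ2 (adjusted p = 0.00182 and 0.00114, limma). Vinculin (Vcl), which reinforces junctions under tension, rose by 0.32. Cdh17, an intestinal cadherin that is 1 of the 2 higher genes and the 1 higher between the cytokines, averaged 15 units in the control and with IFN-β, so that it passed the filter through its IFN-λ2 arrays alone, of which 2 were well above background, and its call is not read further. Of 25 scaffold, polarity and tricellular genes, 2 were higher and 3 lower with IFN-λ2, and 1, the polarity kinase Prkcz, was lower with IFN-β. Prkcz changed by -0.77 with IFN-λ2 and -0.44 with IFN-β (adjusted p = 0.000884 and 0.0409). The scaffolds Patj and Mpdz changed by 0.57 and -0.57 with IFN-λ2 (adjusted p = 0.0154 and 0.00446).

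None of the 3 desmosome linker genes and none of 7 actomyosin regulators was called in a limma comparison, and the methods' t-test called 0 as well. Before adjustment, p was below 0.05 for 0 linker genes and for 2 actomyosin regulators with IFN-λ2 against control, 0 with IFN-β and 2 between the cytokines. Of the pannexins, 2 of 3 were tested, and Panx1 was lower when the cytokines were compared (-0.32 for IFN-λ2 over IFN-β, adjusted p = 0.0329). Of 11 transcription and splicing factors of the epithelial state, 10 were tested, with 2 higher and 4 lower with IFN-λ2 (against 10.1% and 8.39% of all tested probes) and none called with IFN-β in limma (1 at an unadjusted p below 0.05, 0 by the methods' t-test). Hnf4a, a nuclear receptor of gut and liver epithelium that was well above background on 7 arrays, averaged 163 units in the control, 26.7 with IFN-λ2 and 132 with IFN-β. Since 2 of the 3 IFN-λ2 arrays were well above background, only a bound is given, at least 5.42-fold lower against control (adjusted p = 9.8e-05) and at least 4.40-fold lower against IFN-β. Grhl3 and Ovol1, regulators of epithelial differentiation, changed by -0.67 and 0.62 (adjusted p = 0.0218 and 0.0113).

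Markers of other cell types were read beside these results. Among 9 fibroblast and smooth muscle genes, 1 was well above background on all arrays, Vim, and Col3a1, Pdgfra and Pdgfrb were on none. Their summed signal was 12137 to 15294 units in the control, 6850 to 8652 with IFN-λ2 and 14277 to 15984 with IFN-β, nearly all of it from Vim, which changed by -0.87 with IFN-λ2 (adjusted p = 0.00744, limma). The leukocyte list of 6 genes summed to 6153 to 8657, 2386 to 3965 and 3004 to 11061 units, and limma called none of the 5 tested in a comparison (2, 0 and 2 at an unadjusted p below 0.05 for IFN-λ2, IFN-β and between the cytokines, 0 by the methods' t-test). Nearly all of this sum was Itgam, with means of 7133, 2878 and 6714 units, and it was not called (adjusted p = 0.145 for IFN-λ2 against control). Of the other members measured on all arrays, Cd3e averaged 180, 156 and 182 units and Cd68 47.1, 63.8 and 49.0 units in the control, IFN-λ2 and IFN-β groups. Ptprc and Adgre1 were well above background on 2 arrays each. Among 6 endothelial genes, Kdr was well above background on all 8 arrays, with means of 859, 820 and 877 units, Pecam1 was on 7, Esam on 6, and Cdh5, Tie1 and Tek on none. Their sums were 892 to 1059 units in the control, 884 to 1032 with IFN-λ2 and 973 to 1006 with IFN-β. The intestinal markers summed to 348142 to 359351 units in the control, 446247 to 474235 with IFN-λ2 and 374288 to 401540 with IFN-β, most of it from Krt18, which was not called (means of 204314, 241107 and 223274 units), and Krt20. Of the 11 tested, Cdh1, Krt19, Krt20 and Cdh17 were higher with IFN-λ2 and Hnf4a was lower, where Cdh17 was tested through its IFN-λ2 arrays alone. The list shares Cdh1 and Epcam with the junction genes. Krt20 and Krt19, keratins of simple epithelium, rose by 0.73 and 0.41 (adjusted p = 0.00308 and 0.0220, limma). Of the squamous markers, Krt5 rose by 0.84 against control (adjusted p = 0.0157) and 0.60 against IFN-β (adjusted p = 0.0485), whereas Krt14 was at -1.06 against IFN-β (adjusted p = 0.0170). Their sums were 5035 to 5589 units in the control, 6085 to 6427 with IFN-λ2 and 5031 to 6357 with IFN-β. The part of these shifts in the junction results was not tested, and in bulk RNA fewer cells of a type cannot be told apart from less RNA per cell.

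**Figure D4:**
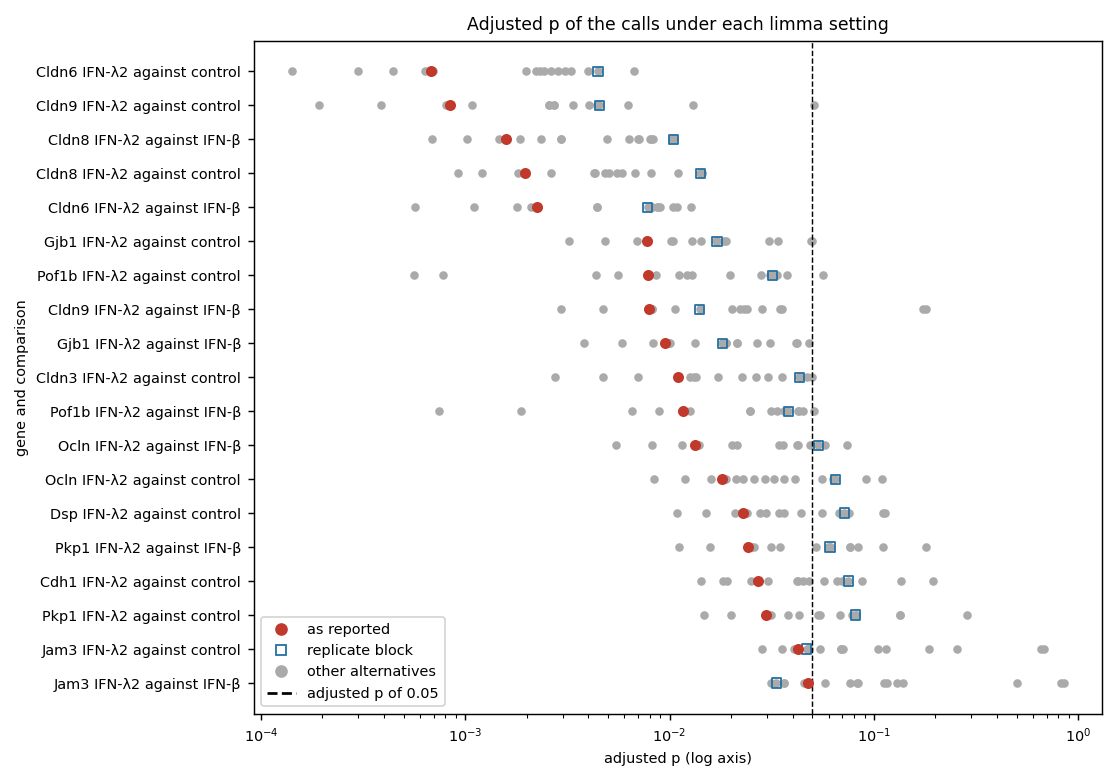
Adjusted p (log axis) of 19 calls on 11 junction genes as reported (red), with the replicate block (blue squares) and under the other limma alternatives (gray), with a dashed line at 0.05. The calls of Cldn6, Cldn8, Gjb1 and Cldn3 stay left of the line throughout, whereas Jam3 and Pkp1 cross it most often.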

How the data were processed

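RNA of IEC10 cells was labeled with Cy3 and hybridized to 1-color Agilent whole mouse genome arrays. The authors deposited, per array, the background-subtracted intensity of every feature from Feature Extraction 10.7.3.1, before scaling, and a table of scaled linear intensities. Following the methods, flagged and outlier features were left out and on-chip copies were averaged by the geometric mean. A probe with no feature left kept the mean of all its features, so that flagged probes with a single copy stayed in. Of the 39429 probes, 399 had several copies. The 75th percentile was scaled to 1500, values below 15 were set to 15, and log2 was taken. Probes above 15 on at least 2 arrays were fitted together with limma 3.58.1 (R 4.3.3) over the 3 groups, with Benjamini-Hochberg adjustment over all 26009 probes. Calls have an adjusted p below 0.05, and intervals are unadjusted. Tables were made with Python 3.11.15, and the fit was tested on simulated data.

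Genes, lists and tests were chosen with earlier results of these data known. Full statistics go to genes whose leading probe was called with a change of at least 1.5-fold and to Cdh1, Epcam, Ocln, Tjp1, Cldn2, Cldn7, Dsp, Jup, Gja1 and Pof1b. Values of further genes were added after they were seen. RefSeq symbols were matched for 78 of 79 probes, 77 by accession and 1 by symbol.

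Each slide held 1 replicate number and was scanned together. The deviations of IFN-λ2 and IFN-β arrays of the same number from their group means correlated at 0.184, 0.283 and 0.316, so that the numbers pair these groups. For control and IFN-λ2 the values were 0.0191 and 0.00132, for control and IFN-β 0.100 and -0.0511. The reported fit did not use the pairing. With the replicate block, 8 of the 12 genes called between the cytokines were still called. Each group always had the same slide position, which cannot be told apart from the treatment. The number of arrays limits the precision. The alternatives were other background, scaling, threshold and filter choices, the deposited table, the replicate block, leaving out each array, a 2-fold minimum and the methods' t-test. The latter took the p and fold limits of the paper's 2-group analysis. The paper does not name the test of that analysis, and its q limit of 0.05 was not applied. Since the offset of normexp lets dim probes past the filter, normexp on the probes of the reported fit was added after seeing the data. A control replicate 1 was not analysed here. Single values of some members are not reported here, while the counts include them.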

Additional observations from a re-analysis of the deposited data

How the results depend on the processing

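With IFN-λ2 against control, 9 higher and 11 lower junction probes became 7 and 5 with normexp background correction on the same probes (added after seeing the data), 3 and 2 with normexp and no filter on dim probes together, 5 and 7 with the replicate block, 0 and 1 with the methods' t-test (p below 0.001 and 2-fold) and 2 and 3 with a 2-fold minimum, and 5 were lower without a filter on dim probes. Quantile normalization gave 8 higher and 15 lower, and a lower threshold of 50 units, with 43 junction probes tested, gave 10 and 12. Leaving out 1 array at a time gave 3 to 9 higher and 4 to 11 lower. Between the cytokines, 4 higher and 9 lower probes became 1 and 1 with the t-test and 2 and 2 with the 2-fold minimum, and 2 were lower with normexp on the same probes, 1 with normexp and no filter together and 5 with the replicate block. A threshold of 50 units gave 5 higher and 11 lower. Leaving out 1 array gave 2 to 5 higher and 3 to 8 lower. With IFN-β against control the range was 0 to 1 higher. After Benjamini-Hochberg adjustment the t-test called 3, 0 and 7 junction probes for IFN-λ2, IFN-β and the cytokines. Of all 30 gene calls, 7 held under each of the 16 other limma fits at an adjusted p below 0.05 (Cldn3 and, in both comparisons, Cldn6, Cldn8 and Gjb1), 23 were lost under at least 1, 10 of them with the replicate block, and none reversed. The 2-fold minimum is not among these 16. Jam3 was lost under 10 or 11 and F11r against control under 11. Pkp1 and, between the cytokines, Cldn4 were lost under 9, and Marveld3 against control under 8. The cause of these losses was not tested. Genes under about 50 units, such as Cldn8, Pof1b and Jam3 in their dimmer groups, are limited by background.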
